A study of Mus musculus with 33 samples.

Results

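The interferon-stimulated genes described here are 45 genes whose transcription is switched on by interferons, found by their symbols among the 25239 genes of the deposited expression table of mouse endothelial cells. All 45 had a row in the table. Of these, 41 reached 1 RPKM (a read count divided by the length of the gene and by the size of the library) in at least 2 of the 13 RNA libraries and entered the tests, and Zbp1, Oas2, Oas3 and Mx1 did not.

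The study asked how the stage of an endothelial cell bears on its response to RUNX1, the transcription factor that turns hemogenic endothelium into blood cells. The sorted cells carried CD31, VE-cadherin and low or positive cKIT and lacked the blood markers CD45, Ter119 and CD41, and they came from whole E9.5 embryos, from whole E13.5 fetuses and from the livers of mice 4 to 6 weeks old. The mice carried a conditional Runx1 knock-in allele, written CKI. The Ctrl groups, for which the labels name no Cre, were CKI/+ at E9.5 and CKI/CKI or CKI/+ at E13.5 and in the liver. The 1Runx1 groups (Cre; CKI/+) had 1 added Runx1 copy and the 2Runx1 groups (Cre; CKI/CKI) had 2, so that Cre and the added copies coincide and cannot be told apart. Every group had tamoxifen at 2 mg, injected 24 hours before harvest for both embryonic stages and given by oral gavage to the liver donors, with no interval stated for the latter. The E9.5 embryos came from superovulated females and a cross of C57BL/6J-129Sv/J with B6C3F1, and the other stages from C57BL/6J-129Sv/J, so strain and stage cannot be told apart between E9.5 and the rest. The labels do not name the driver of Cre, and they do not say whether replicates come from different litters or animals. The p-values therefore speak of the spread among these libraries, which may be technical.

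There were 2 RNA libraries in each of E9.5 Ctrl, E9.5 1Runx1, E13.5 1Runx1, E13.5 2Runx1, liver Ctrl and liver 2Runx1, and 1 in E13.5 Ctrl. Each library held between 37754246 and 44540403 reads assigned to genes, as recovered from the steps of the RPKM values. Runx1 followed the labels: it stood at 0.904 and 0.915 RPKM in E9.5 Ctrl against 14.9 and 16.2 in E9.5 1Runx1, at 1.37 in E13.5 Ctrl, at 28.9 and 23.7 in E13.5 1Runx1, at 22.7 and 25.2 in E13.5 2Runx1, and at 1.19 and 1.53 in liver Ctrl against 78.1 and 78.4 in liver 2Runx1. The E13.5 cells with 2 added copies had no more Runx1 RNA than those with 1 (log2 difference −0.13 ± 0.10 SE, 95% interval −0.35 to 0.10, limma adjusted p = 0.503). All 10 endothelial markers checked were at 1 RPKM or more in every group.

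Interferons are secreted alarm signals of infection. Type I interferons (alpha and beta) bind the receptor pair IFNAR1 and IFNAR2, type II interferon (gamma) binds IFNGR1 and IFNGR2, and both receptors act through JAK kinases. The type I signal leads to a complex with STAT2 and IRF9 that binds the interferon-stimulated response element (ISRE), a doubled GAAA sequence, whereas the response to interferon gamma runs through the gamma-activated site (GAS). The target genes encode sensors of viral RNA, enzymes that degrade RNA, proteins that block viral entry or assembly, GTPases that attack the vacuoles of intracellular microbes, and the immunoproteasome, which cuts peptides for antigen presentation. Endothelial cells respond to interferons, and inflammatory signals including interferons are known to take part in the emergence of blood stem cells from embryonic endothelium.

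The start-site sequences below are from the Isg15, Irf7, Ifit, Oas, Gbp and Ifitm groups. In each group the member shown has the largest absolute Runx1 difference among those with a RefSeq window. Isg15, Gbp3 and Ifitm3 have the response element in the stretch shown and rose with 1 added copy at E13.5. Irf7 and Oasl2 lack it there and rose as well. Ifit3 has it and passed in no Runx1 comparison, though its difference with 1 copy at E13.5 was 0.99 ± 0.36. Whether the element bears on the Runx1 differences was not tested. The sequences are the 200 bases before a listed RefSeq start (GRCm38.p6), read 5′ to 3′ on the gene's strand. Each match to GAAANNGAAA, on either strand, is in capitals. The start used lies inside the annotated gene for Ifit3, Gbp3, Irf7 and Oasl2, so these stretches overlap the gene. That of Ifit3 lies wholly within it. Isg15 lies at chr4:156200819-156201018 on the minus strand, with 3 overlapping matches of which the first begins 78 bases before the start. Ifit3 lies at chr19:34583329-34583528 on the plus strand, with 2 matches. Gbp3 lies at chr3:142559844-142560043 on the plus strand, before the first of its listed starts, with 2 overlapping matches. Irf7 at chr7:141266425-141266624 on the minus strand and Oasl2 at chr5:114896734-114896933 on the plus strand have none, and Oasl2 has 1 match to the RUNX core TGTGGT. For Ifitm3 only the stretch just inside the transcript is shown, at chr7:141010716-141010742 on the minus strand, since both of its matches lie there.
Isg15: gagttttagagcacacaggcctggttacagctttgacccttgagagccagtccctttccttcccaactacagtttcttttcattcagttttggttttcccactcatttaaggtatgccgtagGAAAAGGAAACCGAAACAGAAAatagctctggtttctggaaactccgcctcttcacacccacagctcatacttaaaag
Ifit3: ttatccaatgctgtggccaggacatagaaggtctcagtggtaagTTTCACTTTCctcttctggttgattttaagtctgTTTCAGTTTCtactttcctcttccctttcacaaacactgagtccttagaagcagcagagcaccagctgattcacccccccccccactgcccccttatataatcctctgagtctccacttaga
Gbp3: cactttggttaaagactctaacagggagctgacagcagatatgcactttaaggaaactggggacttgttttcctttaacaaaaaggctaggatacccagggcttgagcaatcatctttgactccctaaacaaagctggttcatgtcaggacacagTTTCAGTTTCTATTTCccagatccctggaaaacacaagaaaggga
Irf7: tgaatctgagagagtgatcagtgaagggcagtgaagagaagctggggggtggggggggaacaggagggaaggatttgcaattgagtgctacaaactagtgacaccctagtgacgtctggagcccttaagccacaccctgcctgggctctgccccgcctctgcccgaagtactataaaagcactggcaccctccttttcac
Oasl2: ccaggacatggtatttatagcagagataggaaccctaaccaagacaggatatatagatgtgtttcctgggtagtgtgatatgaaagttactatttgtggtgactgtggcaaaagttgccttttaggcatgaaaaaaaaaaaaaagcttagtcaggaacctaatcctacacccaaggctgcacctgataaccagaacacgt
Ifitm3: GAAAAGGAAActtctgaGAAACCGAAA

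Over the 300-base windows of the RefSeq table (250 bases before to 50 after a start), 33 of the 45 members could be matched. The ISRE core GAAANNGAAA was present on either strand in 18 of the 33 (54.5%) against 727 of 18651 genes of the expression table with a window (3.90%). The GAS letters TTCNNNGAA, which read the same on both strands, were present in 10 of 33 (30.3%) against 9.17% of all genes, and in Bst2 and Ifitm3 the GAS match overlapped an ISRE match. TGTGGT, on either strand, was present in 4 of 33 (12.1%), namely Stat2, Oasl2, Cmpk2 and Gbp2, against 16.7% of all genes. These matches are a description of letters in a window. Dhx58, Zbp1, Oas2, Mx1, Mx2, Rtp4, Ly6e, Gbp4, Iigp1, Usp18, Ifi27 and Parp14 were not matched.

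The first comparison was between stages, in Ctrl cells alone. Interferon-stimulated genes were low at E9.5, higher at E13.5 and far higher in adult liver endothelium. The summed level of the 45 members was 441 and 462 RPKM in E9.5 Ctrl, 681 in E13.5 Ctrl, and 7493 and 7873 in liver Ctrl. Ifitm2 and Ifitm3, membrane proteins that block viral entry, made up between 63.4% and 83.2% of that sum in every library. Without them the sum was 75.6 and 79.5 RPKM at E9.5, 233 at E13.5 and 2299 and 2393 in the liver. At least 1 RPKM was reached by 17 members in E9.5 Ctrl, by 30 in E13.5 Ctrl and by 41 in liver Ctrl.

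**Figure D1:**
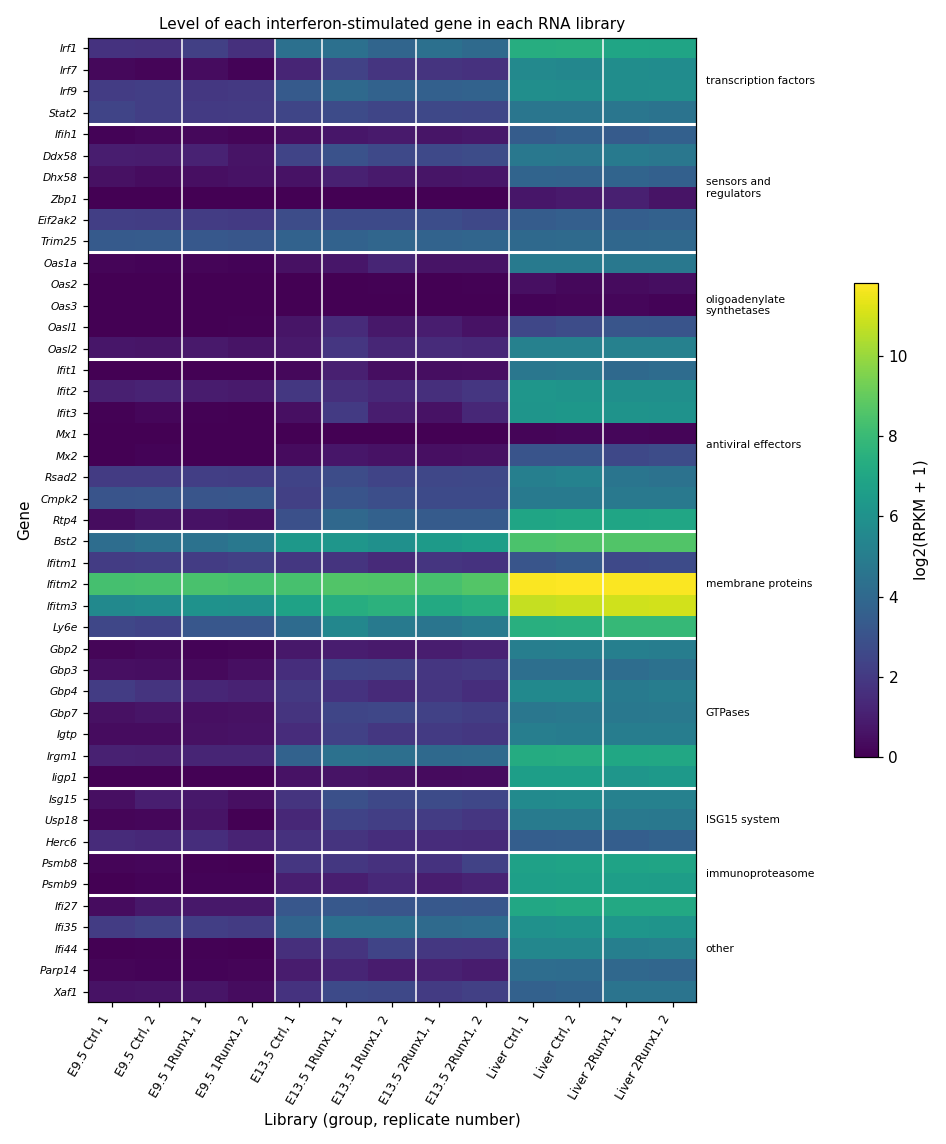
Heat map of log2(RPKM + 1) for each of the 45 genes (rows, grouped by role) in each of the 13 RNA libraries (columns, by group and replicate number). Colours change at the stage boundaries: the 4 liver libraries are brightest in every row, and Ifitm2 and Ifitm3 are the brightest rows throughout.

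From E9.5 to E13.5, 28 of the 41 tested members rose in Ctrl cells and 1 fell, where 22.3% of all 12546 tested genes rose and 26.4% fell (limma on log2(RPKM + 1), adjusted p under 0.05 over all tested genes). The members' median log2 difference was 0.80 and that of all tested genes −0.02. Among the 17 members at 1 RPKM or more in at least 2 E9.5 libraries, 10 rose and 1 fell. E13.5 Ctrl is a single library, which the fit assumes to vary like the other groups. Of all 45 members, 36 had each of the 5 E13.5 libraries above each of the 4 E9.5 libraries, whatever the genotype. Among tested genes this held for 35 of the 41 members and for 25.2% of all.

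The transcription factor Irf1, which activates many interferon-stimulated genes, stood at 2.37 and 2.25 RPKM in E9.5 Ctrl, 19.4 in E13.5 Ctrl, and 163 and 168 in liver Ctrl. It rose by 2.62 ± 0.24 (SE) on the log2 scale from E9.5 to E13.5 (adjusted p = 1.45e-05). Irf7, which amplifies type I interferon responses, was nearly silent at E9.5, with 0.197 and 0.135 RPKM, and reached 1.32 at E13.5 and 46.2 and 43.9 in the liver. Irf9, the DNA-binding partner of STAT2, stood at 3.34 and 3.63, then 9.31, then 55.9 and 54.9 RPKM. Stat2 was at 4.45 and 3.54 RPKM at E9.5 and 4.55 at E13.5, a difference that did not pass the test (0.16 ± 0.12), and at 24.2 and 23.9 in the liver.

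Of the 5 tested sensors and regulators of sensing, 4 rose from E9.5 to E13.5. Ddx58, which encodes the RNA sensor RIG-I, stood at 0.925 and 0.848 RPKM in E9.5 Ctrl, 4.42 in E13.5 Ctrl, and 25.4 and 24.9 in liver Ctrl. Ifih1, which encodes the sensor MDA5, stood at 0.0975 and 0.165 RPKM at E9.5, 0.418 at E13.5 and 9.94 and 11.3 in the liver. Its rise to E13.5 (0.33 ± 0.12, adjusted p = 0.0482) was lost without either E9.5 Ctrl replicate (adjusted p 0.162 and 0.0757). Trim25, a ubiquitin ligase that activates RIG-I, varied little between stages, at 9.30 and 9.67, then 12.05, then 15.6 and 15.9 RPKM, and its rise to E13.5 was lost without E9.5 Ctrl replicate 1 (adjusted p = 0.0592). When the recovered reads were scaled to their plain totals, Trim25 differed by −0.05 between liver and E13.5 in place of 0.36.

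The oligoadenylate synthetases make the short RNA messenger that activates RNase L. Oasl2, a related protein with added ubiquitin-like domains, stood at 0.655 and 0.610 RPKM in E9.5 Ctrl, 0.735 in E13.5 Ctrl, and 35.6 in both liver Ctrl libraries. Oas1a stood at 0.104 and 0.0844, 0.454, and 27.7 and 28.1 RPKM. Oas2 and Oas3 stayed at or below 0.387 RPKM in all 13 libraries. Near-identical copies of Oas1a, of the Ifit genes, of the Ifitm genes and of the guanylate-binding proteins could have split or shared reads in the authors' counting.

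Among the antiviral effectors the stage pattern was uneven. Rtp4, a receptor transporter that restricts flaviviruses, rose from 0.311 and 0.565 RPKM at E9.5 to 6.36 at E13.5 (2.36 ± 0.13, adjusted p = 5.50e-07) and stood at 123 and 130 in the liver. Cmpk2, a mitochondrial nucleotide kinase next to Rsad2 on chromosome 12, was the one member that fell, from 7.47 and 7.70 RPKM at E9.5 to 3.76 at E13.5 (−0.85 ± 0.09, adjusted p = 4.76e-05), before standing at 27.4 and 28.3 in the liver. Rsad2 encodes viperin, an enzyme that makes a chain-terminating nucleotide. It stood at 3.10 and 3.19 RPKM at E9.5 and 4.14 at E13.5, a smaller difference that did not pass (0.31 ± 0.12, adjusted p = 0.0579). Some alternatives called it higher, namely a pseudocount of 0.1 RPKM in place of 1 and limma-voom on the recovered reads scaled to their totals. In the liver Rsad2 stood at 33.8 and 37.0 RPKM. Ifit1, an RNA cap-binding protein, had 1 and 2 reads in the E9.5 Ctrl libraries and 27 in the E13.5 one, against 2108 and 2321 in liver Ctrl. Ifit2, a relative of Ifit1 that promotes apoptosis, rose from 1.04 and 1.27 RPKM at E9.5 to 2.74 at E13.5 (0.80 ± 0.13) and stood at 72.9 and 69.1 in the liver. Mx1 and Mx2, which GRCm38 annotates as transcribed pseudogenes, reached at most 0.143 and 7.51 RPKM.

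The membrane proteins held the most abundant members at each stage. Ifitm2 was already at 318 and 330 RPKM at E9.5 and at 338 at E13.5, a difference that did not pass the test (0.06 ± 0.10), and stood at 3417 and 3621 in the liver. Ifitm3 stood at 47.6 and 52.8, then 110, then 1777 and 1858 RPKM. Bst2, the tetherin that holds budding virions at the cell surface, rose from 17.5 and 20.9 to 78.5 RPKM (1.98 ± 0.14) and stood at 350 and 381 in the liver. Ly6e, a glycolipid-anchored protein that limits coronavirus entry, rose from 4.74 and 4.12 to 16.3 (1.67 ± 0.21) and stood at 175 and 183 in the liver.

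Of the 7 interferon-inducible GTPases, 6 rose from E9.5 to E13.5. Irgm1, a regulator of autophagy and of the other GTPases of its family, had the largest rise of all members, from 1.11 and 1.04 RPKM to 12.3 (2.68 ± 0.07, adjusted p = 3.55e-09), and stood at 155 and 160 in the liver. Iigp1, which coats the vacuole of Toxoplasma, was low outside the liver. It had 6 and 5 reads in the E9.5 Ctrl libraries, 81 in E13.5 Ctrl, and 10053 and 10580 in liver Ctrl, that is 97.3 and 99.3 RPKM. Gbp4 was the exception, at 3.33 and 2.42 RPKM at E9.5, 2.91 at E13.5 and 48.3 and 47.9 in the liver.

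Isg15, a ubiquitin-like protein attached to other proteins, stood at 0.421 and 0.994 RPKM in E9.5 Ctrl, 2.43 in E13.5 Ctrl, and 48.9 and 51.6 in liver Ctrl. Usp18, the protease that removes it and a brake on the type I receptor, rose alongside it, from 0.124 and 0.167 to 1.47 RPKM (1.11 ± 0.19). The immunoproteasome subunits Psmb8 and Psmb9 had the largest differences between liver and E9.5. Psmb9 had 0 and 3 reads at E9.5, 40 at E13.5, and 2586 and 2804 in the liver (100.2 and 105 RPKM). Ifi27, a mitochondrial and nuclear-envelope protein, rose from 0.333 and 0.689 RPKM at E9.5 to 8.18 at E13.5 (2.61 ± 0.12) and stood at 133 and 143 in the liver.

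Between E13.5 Ctrl and liver Ctrl, all 41 tested members were higher in the liver, where 40.6% of all tested genes were higher and 38.6% lower. Between E9.5 Ctrl and liver Ctrl, 41 were again higher, where 42.7% of tested genes were higher and 42.7% lower. Of the 41, 8 reached 1 RPKM through the liver alone and so had to differ, and the other 33 were all called higher in both comparisons. In all 45 members, including the 4 not tested, the lowest of the 4 liver libraries was above the highest of the 9 embryonic ones, as it was for 36.6% of all tested genes. The liver minus E13.5 difference ran from 0.36 ± 0.09 for Trim25 to 6.04 ± 0.09 for Iigp1 in log2(RPKM + 1), where the added 1 shrinks the change of genes near 0. After Iigp1 came Ifit3 (5.71 ± 0.36), Psmb9 (5.69 ± 0.15), Psmb8 (4.95 ± 0.19), Ifit1 (4.47 ± 0.19) and Oasl2 (4.40 ± 0.19). Against E9.5 the largest were Psmb9 (6.64 ± 0.12), Psmb8 (6.62 ± 0.16), Iigp1 (6.58 ± 0.08), Ifi27 (6.53 ± 0.10), Rtp4 (6.48 ± 0.11) and Irgm1 (6.26 ± 0.06).

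Markers of other cell types also moved with stage. The summed level of 13 macrophage and Kupffer cell markers was 1.12 to 1.43 RPKM in E9.5 Ctrl, 22.1 in E13.5 Ctrl and 208 to 217 in liver Ctrl, with 0, 6 and 13 of them at 1 RPKM or more. Clec4f, which defines Kupffer cells, was at 17.96 and 18.3 RPKM in liver Ctrl. Markers of T, NK and B cells summed to at most 3.70 RPKM in every group. The 8 markers of liver sinusoidal endothelium summed to 121 to 126 RPKM at E9.5, 531 at E13.5, and 11811 to 11906 in the liver. The 10 endothelial markers summed to 1799 to 1815 RPKM at E9.5, 2281 at E13.5, and 4845 to 4937 in the liver. The part of RNA from macrophages and other cell types, of endothelial subtype and of organ in the stage difference was not tested. In bulk samples more cells of a type and more RNA per cell cannot be told apart.

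**Figure D2:**
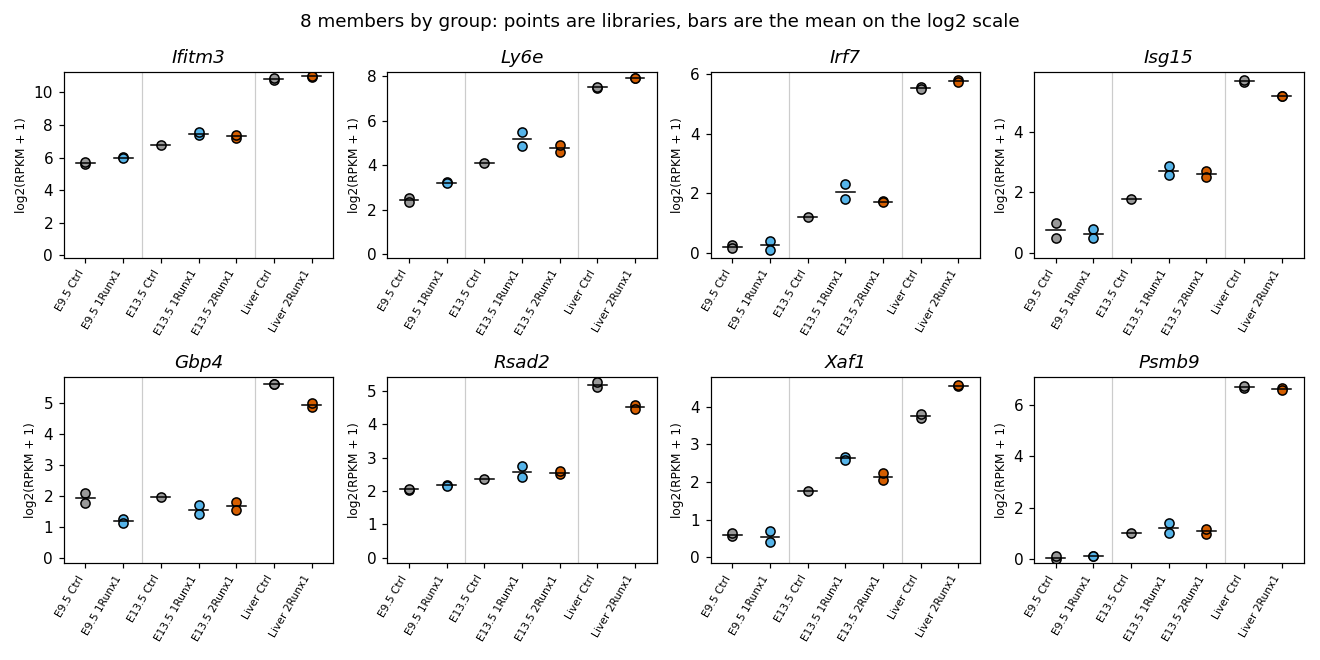
log2(RPKM + 1) of 8 members (panels) in the 7 groups (x axis), with 1 point per library and a bar at the group mean; grey is Ctrl, blue 1Runx1 and orange 2Runx1, and vertical lines part the stages. The liver points are highest in each panel, and within stages Isg15, Irf7 and Ly6e are above the single Ctrl point at E13.5 while Gbp4 and Rsad2 are below Ctrl in the liver.

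The effect of added Runx1 was then read within each stage. At E9.5 a single member passed the test. With 1 added copy 0 of 41 rose and 1 fell, against 0.861% and 0.327% of all tested genes, and the members' median log2 difference was 0.01, as was that of all tested genes. An unadjusted p under 0.05 was reached by 8 of 41, where 12% of all tested genes reached it. The member that fell was Gbp4, a guanylate-binding GTPase, with 3.33 and 2.42 RPKM in Ctrl and 1.39 and 1.19 in 1Runx1 (−0.75 ± 0.13, limma adjusted p = 0.0249). Both 1Runx1 libraries were below both Ctrl libraries, but the call was lost without E9.5 Ctrl replicate 1 (adjusted p = 0.244), without 1Runx1 replicate 1 (0.0782) or 2 (0.230), with no filter on low values (0.0918), with quantile normalization (0.0548) and with E9.5 libraries alone (0.139). Ly6e stood at 4.74 and 4.12 RPKM in Ctrl and 8.36 and 8.14 in 1Runx1 (0.77 ± 0.17, adjusted p = 0.0687), which did not pass. The next largest differences, none of them past the test, were 0.32 for Ifitm3, −0.29 for Stat2, 0.26 for Bst2 and −0.24 for Ifit2.

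At E13.5, 15 of 41 members rose with 1 added copy and 0 fell, where 6.34% of tested genes rose and 4.03% fell. The median log2 difference was 0.41 against 0.02 for all tested genes, and 31 of 41 were positive, where 54.6% of all tested genes were. The comparison rests on the 1 Ctrl library. With the E13.5 libraries fitted alone, 0 members passed, with adjusted p from 0.155 to 0.281 for the 15. That fit has fewer residual degrees of freedom and also called 0 members in 2Runx1 against 1Runx1, which does not use Ctrl. It therefore cannot show the part of the Ctrl library. At least 12 of the 15 kept their call under each of the other alternatives.

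The members that rose came from 7 of the 9 roles. Of the transcription factors, Irf7 had 1.32 RPKM in Ctrl and 4.00 and 2.49 in 1Runx1 (0.85 ± 0.18, adjusted p = 0.0177), and Irf9 9.31 against 15.6 and 12.1 (0.52 ± 0.12, adjusted p = 0.0235). Irf1 and Stat2 did not pass (−0.26 ± 0.24 and 0.12 ± 0.12). Of the 3 genes of the ISG15 system 2 rose. Isg15 had 2.43 RPKM in Ctrl and 6.32 and 4.93 in 1Runx1 (0.94 ± 0.20, adjusted p = 0.0169), and Usp18 had 1.47 against 4.26 and 3.57 (0.99 ± 0.19, adjusted p = 0.0137). Isg15 was no longer called without 1Runx1 replicate 1 (adjusted p = 0.0523). With a pseudocount of 0.1 RPKM in place of 1, Irf7 and Isg15 (adjusted p = 0.0854 for both) and Usp18 (0.245) were lost, and limma-voom on the recovered reads did not call Usp18 (0.0666 and 0.0716).

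Of the 5 membrane proteins, 2 rose. Ly6e had 16.3 RPKM in Ctrl and 44.0 and 27.6 in 1Runx1 (1.05 ± 0.21, adjusted p = 0.0141), the largest difference of the list, with the 2 libraries well apart. Ifitm3 had 110 RPKM in Ctrl and 164 and 191 in 1Runx1 (0.68 ± 0.10, adjusted p = 0.00467). Bst2, the other abundant member, had 78.5 against 72.3 and 60.5 and did not pass.

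Of the GTPases, 4 of 7 rose. Gbp3 went from 1.96 RPKM to 4.20 and 4.11 (0.80 ± 0.11, adjusted p = 0.00286), Gbp7 from 2.48 to 4.47 and 4.74 (0.69 ± 0.10), Igtp from 1.81 to 3.88 and 2.82 (0.62 ± 0.13) and Irgm1 from 12.3 to 20.3 and 19.0 (0.63 ± 0.07, adjusted p = 0.000673). Gbp4 did not pass and had the other sign, with 2.91 RPKM in Ctrl and 2.28 and 1.68 in 1Runx1 (−0.40 ± 0.16, adjusted p = 0.146).

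Of the antiviral effectors, Rtp4 went from 6.36 RPKM to 14.7 and 11.8 (0.95 ± 0.13, adjusted p = 0.00291) and Cmpk2 from 3.76 to 7.33 and 6.17 (0.70 ± 0.09, adjusted p = 0.00249). Ifit3 had 0.398 RPKM in Ctrl against 2.98 and 0.928, and with libraries that far apart its difference of 0.99 ± 0.36 did not pass (adjusted p = 0.108). Ifit2 had 2.74 RPKM in Ctrl against 2.05 and 1.60, a difference with the other sign that did not pass (−0.41 ± 0.13, adjusted p = 0.078). With limma-voom on the recovered reads scaled to their totals, Ifit2 was called lower (−0.62). Oasl2 rose (0.78 ± 0.19), as did Ifi35 (0.58 ± 0.10), an interferon-induced leucine-zipper protein, and Xaf1 (0.87 ± 0.13), an antagonist of the apoptosis inhibitor XIAP, from 2.36 to 5.32 and 4.99 RPKM. Neither immunoproteasome subunit passed, and none of the 5 tested sensors did.

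The 2 E13.5 1Runx1 libraries differed from each other: 34 of 41 members were higher in replicate 1, by a median of 0.22 on the log2 scale, whereas the median over all genes was 0.01. Leaving out replicate 2 gave 19 members called and leaving out replicate 1 gave 16. Marker levels differed between the E13.5 groups as well. In 1Runx1 against the Ctrl library, 5 of 13 macrophage markers, 3 of 5 tested neutrophil markers, 4 of 5 tested erythroid markers and 6 of 9 hepatocyte markers were lower. Another hepatocyte marker, Trf, was higher, with 90.7 RPKM in Ctrl against 144 and 134, and Ttr had 5.80 against 22.7 and 19.8, which did not pass. The macrophage sum was 11.1 to 12.6 RPKM against 22.1. Of the 10 endothelial markers 3 were higher and 1 lower, and of 4 tested pan-leukocyte markers 1 was higher and 1 lower. The part of these marker differences in the result was not tested.

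With 2 added copies at E13.5, 0 of 41 members rose and 0 fell against the same Ctrl library, where 0.151% of tested genes rose and 0.12% fell. By limma 17 members had an unadjusted p under 0.05, where 13.1% of all tested genes did, and limma-voom on the recovered reads also called 0. The median log2 difference was 0.21, and 34 of 41 were positive, where 54.8% of all tested genes were. Isg15 had 5.47 and 4.71 RPKM against 2.43 in Ctrl (0.83 ± 0.20, 95% interval 0.39 to 1.26, adjusted p = 0.131). Ifitm3 had 145 and 169 against 110 (0.51 ± 0.10, adjusted p = 0.0953) and Irgm1 15.5 and 15.9 against 12.3 (0.33 ± 0.07, adjusted p = 0.0953). Usp18, Ly6e, Oasl2, Irf7 and Rtp4 had differences of 0.68, 0.65, 0.63, 0.51 and 0.51, and none passed. Both E13.5 contrasts share that Ctrl library, so their likeness is not a separate result.

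The 2 genotypes were therefore also compared with each other. In 2Runx1 against 1Runx1, 4 of 41 members were lower and 1 higher, where 3.16% of tested genes were lower and 2.17% higher. Xaf1 had 3.15 and 3.69 RPKM against 5.32 and 4.99 (−0.48 ± 0.11, adjusted p = 0.0310), Gbp3 2.62 and 2.84 against 4.20 and 4.11 (−0.47 ± 0.09, adjusted p = 0.0176), Rtp4 9.59 and 9.40 against 14.7 and 11.8 (−0.44 ± 0.11, adjusted p = 0.0432) and Irgm1 15.5 and 15.9 against 20.3 and 19.0 (−0.30 ± 0.06, adjusted p = 0.0155). Bst2 was higher, with 87.0 and 97.4 RPKM against 72.3 and 60.5 (0.47 ± 0.11, adjusted p = 0.0403). Ifit3 (−0.53) and Ly6e (−0.41) had differences of like size that did not pass (adjusted p 0.312 and 0.183). For each of the 5 called genes the groups did not overlap, which held for 21.2% of all tested genes as higher and 25.1% as lower. The count moved to 11 without 1Runx1 replicate 2, to 3 without 2Runx1 replicate 2 and to 1 without 2Runx1 replicate 1, where none of these 5 remained and the member called was Psmb8, which was higher in 2Runx1 (0.53, adjusted p = 0.0221). The count was 0 with the E13.5 libraries alone or with the replicate number as a block. In this comparison 6 of 9 hepatocyte, 3 of 13 macrophage and 1 of 5 neutrophil markers were higher in 2Runx1. Of 10 endothelial markers 1 was higher and 1 lower, and the part of these marker differences was not tested.

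**Figure D3:**
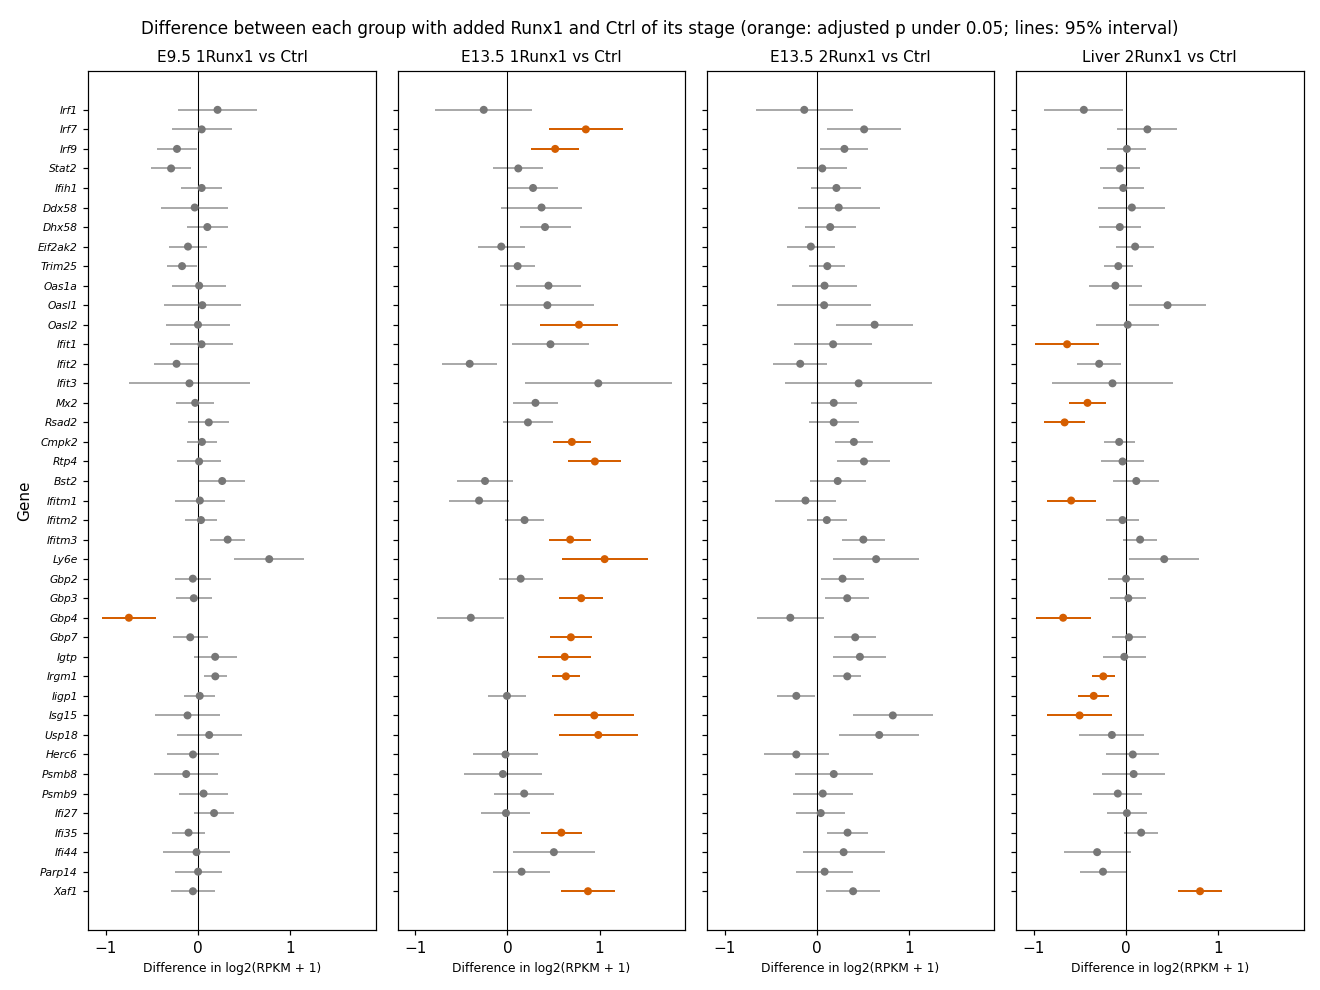
Difference in log2(RPKM + 1) between each group with added Runx1 and the Ctrl of its stage (x axis) for the 41 tested members (y axis), with 95% intervals from limma; orange marks adjusted p under 0.05. The E13.5 1Runx1 panel has 15 orange points to the right of 0, E13.5 2Runx1 has none, and the liver panel has 8 to the left and 1 to the right.

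In adult liver more members fell than rose. With 2 added copies 8 of 41 fell and 1 rose, where 8.14% of all tested genes fell and 17.1% rose, and the median log2 difference was −0.04 against 0.02 for all tested genes. Of the 7 tested antiviral effectors 3 fell. Rsad2 had 33.8 and 37.0 RPKM in Ctrl and 22.9 and 21.0 in 2Runx1 (−0.67 ± 0.10, adjusted p = 0.000702). Ifit1 had 24.95 and 26.6 against 15.3 and 17.2 (−0.64 ± 0.16, adjusted p = 0.0125), and Mx2 7.32 and 7.51 against 4.95 and 5.67 (−0.42 ± 0.09, adjusted p = 0.00727). Cmpk2, the neighbour of Rsad2, had 27.4 and 28.3 against 26.8 and 26.1 and did not pass.

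Of the GTPases, 3 of 7 fell in the liver. Gbp4 had 48.3 and 47.9 RPKM in Ctrl and 28.2 and 31.1 in 2Runx1 (−0.68 ± 0.13, adjusted p = 0.00393), Iigp1 97.3 and 99.3 against 74.0 and 80.0 (−0.35 ± 0.08, adjusted p = 0.00660) and Irgm1 155 and 160 against 131 and 135 (−0.25 ± 0.06, adjusted p = 0.00847). Gbp2, Gbp3, Gbp7 and Igtp had differences between −0.02 and 0.03. Isg15 had 48.9 and 51.6 RPKM in Ctrl and 35.2 and 35.1 in 2Runx1 (−0.50 ± 0.16, adjusted p = 0.0430). Ifitm1 had 7.73 and 9.29 against 5.14 and 5.42 (−0.59 ± 0.12, adjusted p = 0.00468), while the far more abundant Ifitm2 and Ifitm3 did not pass (−0.04 ± 0.08 and 0.15 ± 0.08).

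The member that rose in the liver was Xaf1, with 11.9 and 13.01 RPKM in Ctrl and 22.2 and 22.8 in 2Runx1 (0.80 ± 0.11, adjusted p = 0.000298). Ly6e had 175 and 183 against 239 in both 2Runx1 libraries (0.42 ± 0.17, adjusted p = 0.106), and Irf7 46.2 and 43.9 against 54.1 and 52.1 (0.23 ± 0.15, adjusted p = 0.293), neither of which passed. In each of the 9 called members the 2 groups did not overlap, which held for 37% of all tested genes as higher and 29% as lower.

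Xaf1, Gbp4, Rsad2 and Ifitm1 kept their liver calls under every alternative run. Without liver 2Runx1 replicate 1 the count was 4, and Ifit1 (adjusted p = 0.0962), Mx2 (0.0673), Irgm1 (0.0719), Iigp1 (0.0698) and Isg15 (0.154) were lost. Isg15 was also lost without each of the other 3 liver libraries (adjusted p 0.125 to 0.173), with no filter on low values (0.111), with a pseudocount of 0.1 RPKM (0.275) and with the replicate number as a block (0.0704), Ifit1 without either Ctrl library (0.0504 and 0.0782) and Irgm1 without Ctrl replicate 2 (0.0647). A pseudocount of 0.1 RPKM also lost Ifit1 (0.189), Mx2 (0.170) and Iigp1 (0.106). With the liver libraries fitted alone the count was 16, with 12 lower and 4 higher. How many of all tested genes passed in that fit is not reported here. Macrophage markers summed to 204 to 205 RPKM in 2Runx1 against 208 to 217 in Ctrl, with 1 of 13 called higher and 2 lower and a median log2 difference of 0.12. C1qb had 56.4 and 53.1 RPKM in Ctrl against 27.05 and 27.4 in 2Runx1, whereas Clec4f had 17.96 and 18.3 against 24.1 and 23.1. Of the 10 endothelial markers 1 was higher in 2Runx1 and 3 lower. The 6 stellate and mesenchymal markers summed to 36.6 to 41.3 RPKM against 79.7 to 81.8 in Ctrl, and the part of these cell types in the result was not tested.

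Whether the Runx1 difference itself changed with stage was tested by interaction terms. For 1 added copy, 8 of 41 members had a higher difference at E13.5 than at E9.5 and 0 a lower one, where 1.16% of tested genes were higher and 1.1% lower. The 8 were Rtp4 (0.94 ± 0.17), Xaf1 (0.93 ± 0.17), Gbp3 (0.85 ± 0.14), Gbp7 (0.78 ± 0.13), Irf9 (0.75 ± 0.15), Ifi35 (0.69 ± 0.13), Cmpk2 (0.66 ± 0.12) and Irgm1 (0.45 ± 0.09), with adjusted p from 0.0192 to 0.0372. Ifit3 (1.08 ± 0.47), Isg15 (1.06 ± 0.25) and Usp18 (0.87 ± 0.25) did not pass. The count was not stable: it was 0 without E9.5 Ctrl replicate 2, 3 without E9.5 Ctrl replicate 1, 5 and 1 without E9.5 1Runx1 replicates 1 and 2, 14 without E13.5 1Runx1 replicate 2, and 1 with limma-voom on the recovered reads.

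For 2 added copies, 5 of 41 members had a lower difference in the liver than at E13.5 and 0 a higher one, where 2.89% of tested genes were lower and 8.2% higher. Isg15 differed by −1.33 ± 0.25 (adjusted p = 0.00766), Rsad2 by −0.85 ± 0.16 (0.00660), Mx2 by −0.60 ± 0.15 (0.0242), Irgm1 by −0.58 ± 0.09 (0.00212) and Cmpk2 by −0.48 ± 0.12 (0.0286). Usp18 (−0.83 ± 0.25), Ifit1 (−0.82 ± 0.25), Oasl2 (−0.61 ± 0.24) and Ifi44 (−0.60 ± 0.26) did not pass. Rsad2 and Irgm1 kept these calls under every alternative run, and Isg15 lost its call with a pseudocount of 0.1 RPKM alone (adjusted p = 0.0766). The count fell to 3 without liver Ctrl replicate 1, without liver Ctrl replicate 2 or without liver 2Runx1 replicate 1, where Mx2 and Cmpk2 were lost (adjusted p 0.0596 to 0.0785).

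The wider interferon pathway was described by 42 genes outside the list, of which 30 passed the filter. The ligands were at or near 0: Ifna2, Ifna4, Ifnl2 and Ifnl3 were listed at 0 in all 13 libraries, Ifnb1 in 12 of them, with 0.0308 RPKM in E13.5 2Runx1 replicate 2, and Ifng was at 0.175 to 0.392 RPKM in the 4 liver libraries and at 0 in the embryo. The receptors were present throughout, Ifnar1 at 23.6 to 35.7 RPKM and Ifngr1 at 32.0 to 105. From E9.5 to E13.5 Ctrl, 19 of 30 rose and 1 fell, against 22.3% and 26.4% of all tested genes. The 19 include 5 of 5 tested receptors, and Irf8, a myeloid and interferon-gamma-linked factor, went from 0.748 and 0.723 RPKM to 6.97 (2.199 ± 0.178). Socs3, an inhibitor of cytokine receptors, rose by 2.68 ± 0.36, and the phosphatase gene Ptpn6 fell by 0.73 ± 0.19. From E13.5 to liver Ctrl 24 of 30 were higher, led by Socs1 (3.60 ± 0.15), Irf8 (2.90 ± 0.18) and the receptor chain Il10rb (2.43 ± 0.09), and 2 were lower, Ptpn6 (−0.48 ± 0.19) being 1 of them, against the same 40.6% and 38.6% of all tested genes.

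The Runx1 calls among these genes were 1 higher at E9.5, where 0.861% of all tested genes were higher, 3 higher and 1 lower at E13.5 with 1 copy, against 6.34% and 4.03%, and 3 higher and 3 lower in the liver, against 17.1% and 8.14%. At E9.5 only Sting1 passed, the adaptor of cytosolic DNA sensing, with 19.3 and 19.8 RPKM in Ctrl and 27.6 and 26.9 in 1Runx1 (0.46 ± 0.07, adjusted p = 0.00828). It also rose at E13.5 with 1 copy (0.43 ± 0.08, from 29.4 to 42.2 and 38.0 RPKM) and in the liver (0.42 ± 0.07, from 51.9 and 53.5 to 70.8 and 70.9 RPKM). At E13.5 with 1 copy Socs1, a suppressor of JAK signalling, rose (0.78 ± 0.15) and Jak2 fell (−0.43 ± 0.09). In liver 2Runx1 the receptor chain Ifnar1 fell, from 34.0 and 32.3 RPKM to 25.8 and 24.3 (−0.39 ± 0.06, adjusted p = 0.000462), as did Jak1 (−0.29 ± 0.07) and the repressor Irf2 (−0.28 ± 0.08), while Ifngr1 (0.21 ± 0.05) and Ptpn6 (0.52 ± 0.16) rose. In E13.5 2Runx1 against Ctrl 0 of 30 passed by limma, 5 of them at an unadjusted p under 0.05, and against 1Runx1 the receptor chains Il10rb (−0.42 ± 0.07) and Ifngr1 (−0.29 ± 0.05) were lower. Between stages, the 2-copy difference was lower in the liver than at E13.5 for Socs1 (−0.93 ± 0.19) and Ifnar1 (−0.35 ± 0.09), and none of the 30 passed for 1 copy, with 7 at an unadjusted p under 0.05.

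Across the 13 libraries the genes outside the list whose pattern was most like the mean of the tested members were C1qtnf1 (Pearson r = 0.999), Rnf213, App, Hfe, Apbb2, Castor1, Plekho2 and Timp2 (r of 0.998 to 0.999). The libraries fall into 3 stages with the liver far above, so these coefficients describe the stage order, and no p is given. C1qtnf1 averaged 0.396 RPKM in E9.5 Ctrl, 4.07 in E13.5 Ctrl and 202 in liver Ctrl.

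Chromatin was read from 1 combined peak list per group, which allows no replicate check. Of the 33 members with a RefSeq start, an ATAC-seq peak within 1000 bases of a start was listed for 26 in E9.5 Ctrl and 26 in E9.5 1Runx1, 28 in E13.5 Ctrl and 28 in E13.5 1Runx1, 25 in E13.5 2Runx1, 27 in liver Ctrl and 25 in liver 2Runx1. Over all 18651 genes with a start the shares were 64.3% to 66% in the 5 embryonic lists and 50.6% in both liver lists, against 75.8% to 84.8% of the members. The liver lists hold 39019 and 39469 peaks and the embryonic ones 80857 to 100268, and the part of list length in the differences between lists was not tested.

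**Figure D4:**
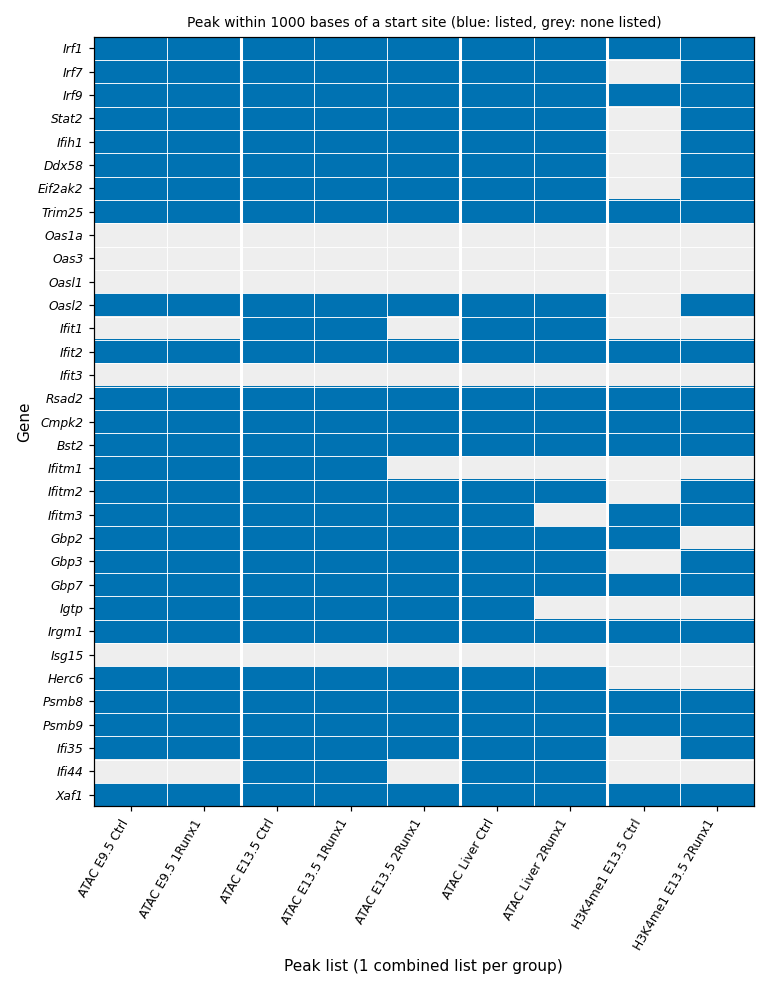
Peak within 1000 bases of a RefSeq start (blue) or none listed (grey) for 33 members (rows) in the 7 ATAC-seq and 2 H3K4me1 lists (columns). Most rows are blue across all ATAC-seq columns, and Isg15, Ifit3, Oas1a, Oas3 and Oasl1 are grey in each of them.

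Most members had a peak at the start at E9.5 already, when many had little RNA. Psmb8 and Psmb9, with 0 to 8 reads in each E9.5 Ctrl library, had a peak in all 7 lists. Isg15, whose start carries 3 ISRE matches, had no listed peak within 1000 bases in any ATAC-seq list, and its nearest ATAC-seq peak was 1772 to 2194 bases away. Ifit3 had its nearest ATAC-seq peak 13021 to 13151 bases away.

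With 1 copy none of the 33 gained or lost a start-site peak. Over all genes 0.761% gained and 0.901% lost one at E9.5, and 0.885% and 0.649% at E13.5, so that 0 of 33 lies near the background. Against E13.5 Ctrl, E13.5 2Runx1 lacked the peaks of Ifit1, Ifitm1 and Ifi44 (9.09% of the 33, against 1.46% of all genes) and gained none. In E13.5 Ctrl these were peaks of modest strength, with −log10 q of 12.7 at Ifit1 and at Ifi44 and 12.6 at Ifitm1. The E13.5 2Runx1 list holds 80857 peaks and the Ctrl list 96537. In both E13.5 2Runx1 libraries the RNA of Ifit1 and Ifi44 was above Ctrl and that of Ifitm1 below, and none passed the test. In the liver the peaks of Ifitm3 and Igtp, at −log10 q of 4.89 and 2.73 in Ctrl, were absent from 2Runx1 (6.06% against 1.68% of all genes), and neither gene's RNA passed the test there. Ifit1 and Ifi44 had a peak in E13.5 Ctrl and none in E9.5 Ctrl (6.06%, against 1.01% of all genes), and none was lost (1.75% of all genes).

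H3K4me1, a histone mark of enhancers and of the flanks of active starts, was profiled at E13.5 only. A region within 1000 bases of a start was listed for 14 of 33 members in Ctrl (42.4%, against 41.7% of all genes) and for 22 in 2Runx1 (66.7%, against 59.8%). Irf7, Stat2, Ifih1, Ddx58, Eif2ak2, Oasl2, Ifitm2, Gbp3 and Ifi35 had a region in the 2Runx1 list alone (27.3%, against 19.3% of all genes), and Gbp2 in the Ctrl list alone (3.03%, against 1.15%). The 2Runx1 list holds 88344 regions and the Ctrl list 48795, and the labels of the 2Runx1 input and immunoprecipitated samples appear exchanged in their descriptions, so genotype, list length and sample identity cannot be told apart here.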

How the data were processed

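RNA-seq gave 1 RPKM table for 13 libraries. The authors' deposited RPKM values came, per the submitters' processing notes, from tools that include Trim Galore 0.6.4, STAR 2.7.3a, featureCounts of Subread 2.0.0 and edgeR on mm10. Nextera XT does not mark strand, and overlapping or antisense genes can therefore share reads. Whole reads could be recovered for 100% of 20720 genes above 0 (within 0.001 reads), and the RPKM carried a further scaling per library of 0.828 to 1.13. This scaling went with stage, at 1.03 to 1.05 in the E9.5 libraries, 1.11 to 1.13 at E13.5 and 0.828 to 0.844 in the liver. A lower value gives a higher RPKM for the same reads.

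Peaks came as 1 combined list per group. The fold enrichment and −log10 q per peak are the authors' values as deposited, and MACS2 2.1.4, Bowtie2 2.3.5.1 and deepTools 3.3.0 are named in the submitters' processing notes.

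Differences were tested with limma 3.58.1 in R 4.3.3 on log2(RPKM + 1), with 7 group means over all 13 libraries, a mean-variance trend, 6 residual and 4.3 prior degrees of freedom, and Benjamini-Hochberg adjustment over the 12546 genes at 1 RPKM or more in at least 2 libraries. Calls are at adjusted p under 0.05, and each ± is a standard error. limma-voom on the recovered reads and the other settings are alternatives, and the scripts were tested on simulated data. Start sites and windows are from RefSeq (GRCm38.p6) and a peak counts within 1000 bases. Python 3.11.15, pandas 2.3.3 and numpy 2.4.6 were used for the rest. The members, pathway list and marker lists were chosen with earlier results of these data known. The text names members called in a Runx1 comparison or an interaction, the 6 of largest difference in each comparison, the 6 of highest level in each stage's Ctrl, pathway genes past the test (in the stage comparisons, the largest), and the 8 genes most like the members by correlation. Ddx58, Ifih1, Oas1a, Oas2, Oas3, Mx1 and Gbp2 were added after their values were seen. Some results on pathway genes are not reported here.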

Additional observations from a re-analysis of the deposited data

Results flagged for a closer look

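For 13 values the difference between a Runx1 group and its Ctrl changed from one stage to another by an interaction term in limma (adjusted p under 0.05 over all tested genes).

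With 1 added copy, the log2 difference at E13.5 exceeded that at E9.5 by 0.94 for Rtp4, 0.93 for Xaf1, 0.85 for Gbp3, 0.78 for Gbp7, 0.75 for Irf9, 0.69 for Ifi35, 0.66 for Cmpk2 and 0.45 for Irgm1. Each of these values rests on the single E13.5 Ctrl library, and all 8 calls were lost without E9.5 Ctrl replicate 2 (adjusted p 0.086 to 0.127).

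With 2 added copies, the log2 difference in the liver was below that at E13.5, by −1.33 for Isg15, −0.85 for Rsad2, −0.60 for Mx2, −0.58 for Irgm1 and −0.48 for Cmpk2. Isg15 had the other sign in the liver (−0.50) than at E13.5 (0.83, not called), as did Irgm1 (−0.25 against 0.33, not called). These values rest on the same E13.5 Ctrl library.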

How the results depend on the processing

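All 41 liver minus E9.5 calls and 23 of the 29 calls between E13.5 and E9.5 Ctrl held under every alternative run, as did 40 of 41 between liver and E13.5. The signs of 2 differences reversed: Ifih1 in E13.5 against E9.5 Ctrl to −0.0044 with quantile normalization, and Trim25 in liver against E13.5 to −0.054 with limma-voom scaled to read totals, a scaling that moved the median of all genes to −0.41 there. The cause was not tested for the first.

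The number of all tested genes passing under each alternative is not reported here, so a change in the members cannot be told apart from one in the whole table. Counts of members called moved as follows. With a pseudocount of 0.1 RPKM they were 3 at E9.5, 2 for 2Runx1 against 1Runx1, 5 in the liver, and 4 and 3 for the 1-copy and 2-copy interactions. With no filter they were 0 at E9.5, 1 for E13.5 2Runx1 against Ctrl, 2 for 2Runx1 against 1Runx1 and 4 for the 1-copy interaction. Quantile normalization gave 0 at E9.5. Within-stage fits gave 0 at E9.5, 0 for both E13.5 1Runx1 against Ctrl and 2Runx1 against 1Runx1, and 16 in the liver. limma-voom, on read totals or on the authors' scaling (the latter chosen after seeing the data), gave 1 for the 1-copy interaction. The cause was not tested.

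The deviations of same-numbered libraries from their group means had correlations of −0.061 at E9.5, −0.047 at E13.5 and 0.107 in the liver. Each stage gave a single value, and the E13.5 Ctrl library could not enter. Whether the replicate numbers pair the libraries is therefore not known. With the replicate block the counts were 0 for 2Runx1 against 1Runx1, 0 for the 1-copy and 3 for the 2-copy interaction, and 12 of the 15 E13.5 1Runx1 calls remained. It also ended the liver call of Isg15 (adjusted p = 0.0704).

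Leaving out 1 library gave 0 to 1 at E9.5, 16 to 19 for E13.5 1Runx1, 0 to 1 for E13.5 2Runx1 against Ctrl (1 without 2Runx1 replicate 1), 1 to 11 for 2Runx1 against 1Runx1, 4 to 8 in the liver, 0 to 14 for the 1-copy and 3 to 6 for the 2-copy interaction. The lone library left in a group is assumed to vary like the others. E13.5 without its Ctrl library could not be fitted. At −log10 q of 10 or more, 16 members in place of 27 had a start-site peak in liver Ctrl. The share of all genes with such a peak was not computed. Reads limit the E9.5 values most, where Psmb9, Ifit1 and Iigp1 had 0 to 6 reads per Ctrl library.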
